A study of Homo sapiens with 9 samples.

Results

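The genes described here encode subunits of the mitochondrial respiratory chain. They were taken from the array annotation by symbol: names beginning with NDUFA, NDUFB, NDUFC, NDUFS, NDUFV, UQCR, COX4, COX5, COX6, COX7 or COX8, together with the succinate dehydrogenase subunits, CYC1 and CYCS. A probe set had to name 1 gene alone, and where a gene had several, the one whose mean across all 9 arrays was highest stood for it. This gave 61 member genes among 19735 genes measured: 33 of complex I, 3 of complex II, 7 of complex III, CYCS for cytochrome c, and 17 of complex IV. Symbols left out were 8 assembly factors of the NDUFAF type, 3 antisense or divergent RNAs and 1 pseudogene. NDUFS5, NDUFS8, NDUFC2 and UQCRH were found only on probe sets that name several genes and were not analysed here.

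The study followed 3 established human embryonic stem cell (hESC) lines, Shef3, H14 and Shef1, towards otic progenitors, the precursors of inner ear cells. The hESC group was undifferentiated cells at day 0, grown on inactivated mouse embryonic fibroblast feeders with knockout serum replacement and 4 ng/ml basic FGF. The other groups were plated as dissociated cells on laminin and kept 14 days in DFNB, a DMEM and F12 mixture with N2 and B27 supplements, either alone (the DFNB group) or supplemented by 50 ng/ml of FGF3 plus 50 ng/ml of FGF10 (the FGF3+10 group). Each group held 3 Affymetrix arrays, 1 per line, so the spread within a group includes the difference between lines. No label says that the arrays came from separate cultures, and p-values measure only the spread between these arrays. Feeders, substrate, medium and time all differ between day 0 and day 14, and their effects cannot be told apart.

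The respiratory chain passes electrons from NADH, through complex I, and from succinate, through complex II, to ubiquinone, then through complex III and cytochrome c to complex IV, where oxygen is reduced. Complexes I, III and IV pump protons across the inner mitochondrial membrane, and ATP synthase uses the gradient to make ATP. Pluripotent stem cells are known for a strong reliance on glycolysis, and oxidative metabolism is known to gain weight in many of their differentiated descendants. Most subunits are encoded in the nucleus, and only nuclear genes are members here.

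Promoter sequences are shown for the genes on which the results below turn: SDHD, NDUFAB1 and CYCS, whose levels at day 14 were farthest below hESC among the well measured members outside complex IV, UQCRC1, which differed most between lines, and COX6A1, whose probe sets disagreed. Each run is the 250 bases before the RefSeq start of the gene, 5′ to 3′ on the strand of the gene, with GRCh38.p14 coordinates. Capitals mark matches to the NRF1 core (GCGCANGCG) or the ETS core (CCGGAAGT) on either strand. NRF1 and the ETS factor GABPA are transcription factors known for binding promoters of respiratory chain genes.
SDHD, chr11:112086623-112086872, plus strand: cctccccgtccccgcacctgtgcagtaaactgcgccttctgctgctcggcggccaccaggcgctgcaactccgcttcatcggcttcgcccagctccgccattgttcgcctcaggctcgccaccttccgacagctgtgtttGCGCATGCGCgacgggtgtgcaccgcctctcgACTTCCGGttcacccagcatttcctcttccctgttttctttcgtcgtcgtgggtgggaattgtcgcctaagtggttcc
NDUFAB1, chr16:23596317-23596566, minus strand: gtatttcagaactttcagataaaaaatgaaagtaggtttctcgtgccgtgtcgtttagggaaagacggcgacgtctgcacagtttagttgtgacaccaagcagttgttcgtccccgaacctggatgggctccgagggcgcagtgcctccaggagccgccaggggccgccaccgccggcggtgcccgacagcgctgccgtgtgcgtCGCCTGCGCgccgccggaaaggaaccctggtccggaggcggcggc
CYCS, chr7:25125261-25125510, minus strand: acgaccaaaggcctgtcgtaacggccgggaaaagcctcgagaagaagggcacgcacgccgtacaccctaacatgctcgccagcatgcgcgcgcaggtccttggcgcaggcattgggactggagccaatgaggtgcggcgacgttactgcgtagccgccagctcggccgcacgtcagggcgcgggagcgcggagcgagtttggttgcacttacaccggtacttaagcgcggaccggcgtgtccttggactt
UQCRC1, chr3:48609647-48609896, minus strand: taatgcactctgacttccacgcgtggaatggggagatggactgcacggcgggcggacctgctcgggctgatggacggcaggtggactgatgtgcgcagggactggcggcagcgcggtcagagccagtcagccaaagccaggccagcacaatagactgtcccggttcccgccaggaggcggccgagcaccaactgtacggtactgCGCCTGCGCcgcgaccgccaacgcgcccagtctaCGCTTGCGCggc
COX6A1, chr12:120437863-120438112, plus strand: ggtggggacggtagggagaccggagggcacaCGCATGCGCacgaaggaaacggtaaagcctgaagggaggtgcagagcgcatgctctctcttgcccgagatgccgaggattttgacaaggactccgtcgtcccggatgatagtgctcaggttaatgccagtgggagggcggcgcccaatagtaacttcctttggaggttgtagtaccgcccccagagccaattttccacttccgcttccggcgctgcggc

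In SDHD the NRF1 core is palindromic and matched on both strands at overlapping positions, and an ETS core follows it closer to the start. NDUFAB1 and COX6A1 held 1 NRF1 match each, and UQCRC1 held 2. CYCS had no match to these letters in this window. A promoter of 300 bases, 250 before and 50 after the start, was found for 53 of the 61 members. The NRF1 core was present in 16 of them (30.2%), against 8.05% of 27305 RefSeq promoters of that length. The ETS core was present in 7 (13.2%, against 4.44%), the YY1 core AAGATGGC in 7 (13.2%, against 3.03%) and TNAAGGTCA, the core of estrogen-related receptors, in 2 (3.77%, against 0.963%). At least 1 of the 4 was present in 24 members (45.3%, against 15% of all promoters). Member promoters held a median of 23 CG pairs and all promoters 14, and the NRF1 and ETS cores contain CG pairs themselves. These matches describe letters and do not show binding.

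Nearly every member had a lower mean after 14 days in either medium than in hESC, but no single member passed the test. In DFNB, 58 of 61 members had a mean below hESC, where 60.5% of all genes did, and the median change of the members was -0.38 on the log2 scale against -0.19 for all genes. In FGF3+10, 59 of 61 were below hESC (all genes 62.4%), with a median change of -0.38 against -0.19. These are differences of deposited values that the authors set to a common median on every array, and the base of their logarithm is not stated and was taken as 2. In bulk samples, fewer cells of a type and less RNA per cell cannot be told apart.

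The counts by array gave the same picture. In DFNB, 43 members were lower than hESC in all 3 lines (all genes 25.9%), and for 22 every DFNB array lay below every hESC array (all genes 14.4%). For 0 members did every DFNB array lie above every hESC array (all genes 7.79%). In FGF3+10, 36 members were lower in all 3 lines (24.6%), 19 had every array below hESC (11.3%) and 0 had every array above (5.66%). Both comparisons use the same hESC arrays.

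By limma with Benjamini-Hochberg adjustment over all genes, 0 members passed an adjusted p of 0.05 in DFNB against hESC, where 0.203% of all genes did, and 0 in FGF3+10 against hESC, where 0.177% did. Before adjustment, 4 members had a p below 0.05 in DFNB (all genes 15.8%) and 2 in FGF3+10 (12.0%). The shares of members below that line are thus smaller than those of all genes, while the shares with lower means are larger. Member changes were mostly alike in sign: in DFNB they ran from -1.85 to 0.03, with SDHD at -1.11. The median half-width of their 95% intervals was 0.669, and for 22 of 61 the whole interval lay within 1 log2 unit of 0 on either side. For 39 of 61 the interval reached below -1, so larger falls remain within the error.

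**Figure D1:**
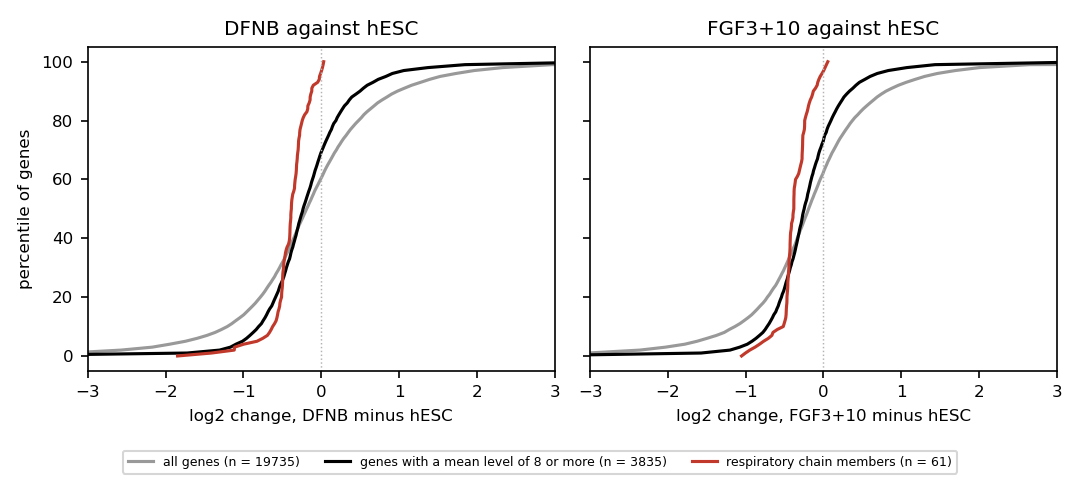
Percentiles (vertical axis) of the log2 change from hESC (horizontal axis, shown from -3 to 3) in DFNB and in FGF3+10, for all 19735 genes, the 3835 genes with a mean level of 8 or more, and the 61 members. The member curve is steep and lies almost wholly below 0, with medians of -0.38 in both panels.

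Most members are strongly expressed, and strongly expressed genes as a class were also lower at day 14. Of the members, 55 had a mean level of 8 or more over the 9 arrays, as did 3835 genes in all (19.4%); this level was chosen after the values were seen. Among those 3835 genes, 69.3% had a lower mean in DFNB and 73.2% in FGF3+10, with median changes of -0.23 and -0.25. Of the 55 members, 52 were lower in DFNB and 54 in FGF3+10. Every DFNB array lay below every hESC array for 20 of the 55 (36.4%), against 18.3% of genes at that level, and every FGF3+10 array for 19 (34.5%), against 14.1%. Quantile normalization moved the median change of all genes by more than 0.1, to -0.079 in DFNB and -0.060 in FGF3+10. The members then had medians of -0.16 and -0.14, and 48 and 46 of 61 were below hESC, against 54.5% and 54.4% of all genes and 52% and 51.3% of genes at a level of 8 or more.

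**Figure D2:**
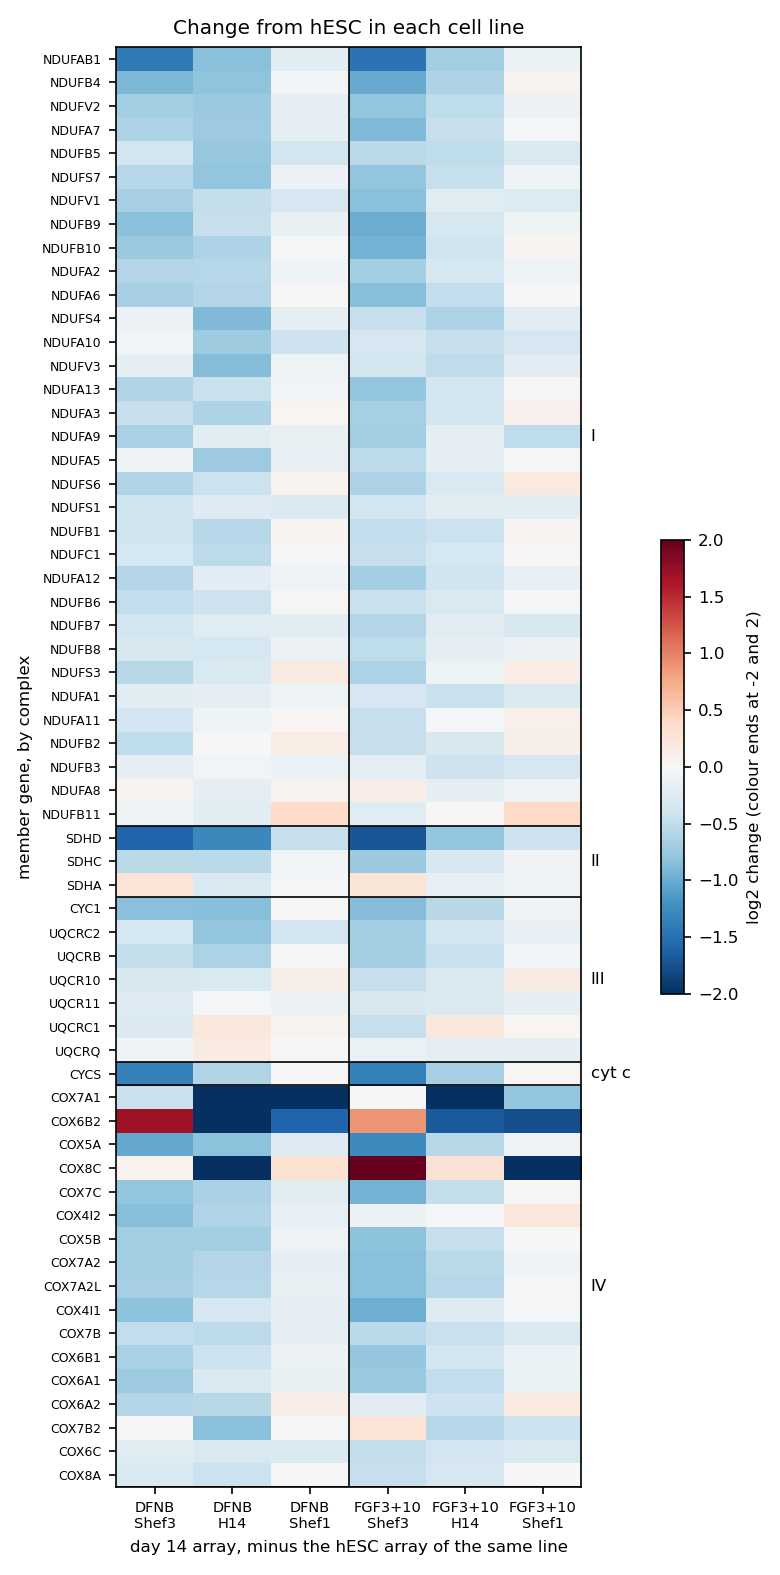
Log2 change of each member (rows, by complex, each ordered by its mean change in DFNB) on each day 14 array, minus the hESC array of the same line (columns). Blue is lower and red higher, and colours end at 2 in either direction. The Shef3 and H14 columns are blue for most members and the Shef1 columns are pale. COX6B2 and COX8C, with strong colours of mixed sign, and COX7A1, with strong colours in blue alone, have low levels on all arrays.

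Complex I takes electrons from NADH and is the largest complex of the chain. In DFNB 32 of its 33 members had a lower mean, with a median change of -0.34, and in FGF3+10 32 of 33, with a median of -0.38. NDUFAB1, the mitochondrial acyl carrier protein and a complex I subunit, was at 12.13 in Shef3, 11.78 in H14 and 11.11 in Shef1 in the hESC group. In DFNB it was at 10.71, 10.95 and 10.88 and in FGF3+10 at 10.66, 11.08 and 10.98, in the same order of lines. All 6 day 14 arrays lay below all hESC arrays, and the hESC arrays themselves spread over 1 unit. The change was -0.83 ± 0.33 (SE, n = 3) in DFNB, with an adjusted p of 0.28 by limma, and -0.77 ± 0.33 in FGF3+10, with an adjusted p of 0.40.

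NDUFB4, an accessory subunit of the membrane arm, had the next largest difference. It was at 11.87, 12.01 and 11.08 in hESC, 10.98, 11.21 and 11.02 in DFNB and 10.87, 11.40 and 11.15 in FGF3+10, for Shef3, H14 and Shef1. The Shef3 and H14 arrays dropped below their hESC values and Shef1 hardly moved, so the groups overlap. Its change was -0.58 in DFNB and -0.52 in FGF3+10.

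The core subunits carry the flavin and iron-sulfur centres and the proton pumping of complex I, and 5 of the 7 on the list of nuclear core subunits were measured. All 5 had lower means in both media, with medians of -0.49 and -0.44. NDUFV2, an iron-sulfur protein of the NADH module, was at 10.30, 10.51 and 10.28 in hESC, 9.63, 9.77 and 10.10 in DFNB and 9.51, 10.00 and 10.17 in FGF3+10. Both day 14 groups lay below hESC on every array, with changes of -0.53 (adjusted p = 0.41, limma) and -0.47 (adjusted p = 0.56). NDUFS7, which holds the last iron-sulfur centre before ubiquinone, changed by -0.50 and -0.44, and NDUFV1, which binds the flavin, by -0.49 and -0.45. NDUFS1, the largest iron-sulfur subunit, changed by -0.32 and -0.27, and NDUFS3 by -0.22 and -0.19.

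A few complex I genes lay at or near 0. NDUFB11, an accessory subunit, was the highest of complex I, at 0.03 in DFNB and 0.06 in FGF3+10. NDUFA8 was at -0.03 and -0.04. The 95% interval for NDUFB11 in DFNB ran from -0.64 to 0.70, so changes in either direction of about that size remain within the error.

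Complex II, succinate dehydrogenase, links the citric acid cycle to the chain, and its 3 measured members differed from each other. SDHD, a membrane anchor of the complex, was at 9.99 in Shef3, 9.69 in H14 and 9.92 in Shef1 in hESC. It was at 8.41, 8.40 and 9.46 in DFNB and at 8.27, 8.92 and 9.50 in FGF3+10. The groups do not overlap, and the Shef1 arrays were the highest of both day 14 groups. The change was -1.11 ± 0.42 (SE, n = 3) in DFNB, with an adjusted p of 0.26 by limma, and -0.97 ± 0.42 in FGF3+10, with an adjusted p of 0.41. SDHC, the other anchor, changed by -0.38 in both media, and SDHA, the catalytic flavoprotein, by -0.02 in DFNB and -0.0018 in FGF3+10.

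Complex III passes electrons from ubiquinol to cytochrome c, and its members had the smallest median change of the complexes, -0.17 in DFNB and -0.27 in FGF3+10, with 5 and 7 of 7 lower; under quantile normalization these medians were 0.08 and 0.02, with 3 of 7 lower in each. CYC1, the haem subunit cytochrome c1, was at 9.38, 9.59 and 8.88 in hESC, 8.54, 8.73 and 8.88 in DFNB and 8.52, 9.03 and 8.81 in FGF3+10. Shef3 and H14 were lower at day 14 and Shef1 stood near its hESC level, with a mean change of -0.57 and -0.50. UQCRC2, a core protein, changed by -0.51 and -0.41. UQCRC1, the other core protein, changed by 0.0007 and -0.07, and UQCRQ, a small subunit, by 0.02 and -0.17.

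CYCS, the soluble carrier between complexes III and IV, was at 12.04 in Shef3, 11.57 in H14 and 11.39 in Shef1 in hESC. In DFNB it was at 10.68, 10.97 and 11.38 and in FGF3+10 at 10.68, 10.90 and 11.41. The order of the lines thus turned round: Shef3 was the highest at day 0 and the lowest at day 14, while Shef1 moved by less than 0.03 in either medium. The mean change was -0.66 ± 0.34 (SE, n = 3) in DFNB, with an adjusted p of 0.38 by limma, and -0.67 ± 0.34 in FGF3+10, with an adjusted p of 0.48.

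Complex IV reduces oxygen and is built from ubiquitous subunits and from isoforms of particular tissues. All 17 members had lower means in DFNB and 16 of 17 in FGF3+10, with medians of -0.46 and -0.43. COX5A was at 11.85, 11.74 and 11.42 in hESC, 10.84, 10.91 and 11.16 in DFNB and 10.58, 11.18 and 11.32 in FGF3+10, for Shef3, H14 and Shef1. All day 14 arrays lay below all hESC arrays, with a change of -0.70 (adjusted p = 0.31, limma) in DFNB and -0.64 (adjusted p = 0.44) in FGF3+10.

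The ubiquitous members of the isoform families were close to each other. COX4I1 changed by -0.45 in DFNB and -0.42 in FGF3+10, COX6A1 by -0.39 and -0.46, COX6B1 by -0.40 and -0.43, COX7A2 by -0.48 in both, COX7B by -0.40 and -0.43, and COX7C by -0.56 and -0.47. COX7A2L, related in sequence and known for a role in joining complexes III and IV, changed by -0.46 and -0.48. COX8A and COX6C had the smallest differences of complex IV in DFNB, -0.24 and -0.28, and were at -0.27 and -0.39 in FGF3+10. None of them passed the test.

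The isoforms of restricted tissues were mostly at low levels. COX6A2 and COX7A1 belong to heart and skeletal muscle, and COX6B2, COX7B2 and COX8C to testis. All 5 had a mean level below 4 over the 9 arrays, where the median SD within groups over all genes was 0.920, against 0.358 for genes at 8 or more. COX7A1 was at -0.61, 1.15 and -0.19 in hESC, -1.06, -1.55 and -2.58 in DFNB and -0.60, -1.25 and -0.96 in FGF3+10. Every DFNB array lay below every hESC array, and FGF3+10 overlapped hESC. Its change in DFNB, -1.85 ± 0.55 (SE, n = 3), had the lowest adjusted p of any member, 0.18 by limma, and -1.05 was found in FGF3+10. COX6B2 changed by -1.12 and -0.86 and COX8C by -0.62 and -0.083, with lines that moved in opposite directions, COX6A2 by -0.34 and -0.14, and COX7B2 by -0.29 and -0.24. Of 9 striated muscle markers measured, 5 (MYH6, MYH7, MYL2, CKM and MYOG) were below 4 on all arrays, and of 6 germ cell markers 4 (DDX4, PRM1, PRM2 and TNP1) were. Of the 9 muscle markers, 4 had a mean of 4 or more in hESC, 2 in DFNB and 3 in FGF3+10, and of the germ cell markers 2 did in hESC and 0 in either medium. The mean level of the muscle list was 2.01 to 3.30 in hESC and 1.20 to 2.40 at day 14, and that of the germ cell list 1.14 to 1.77 and -0.54 to 1.02. Within each line both list means were lower at day 14 than at day 0, and their part in the changes of these isoforms was not tested.

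**Figure D3:**
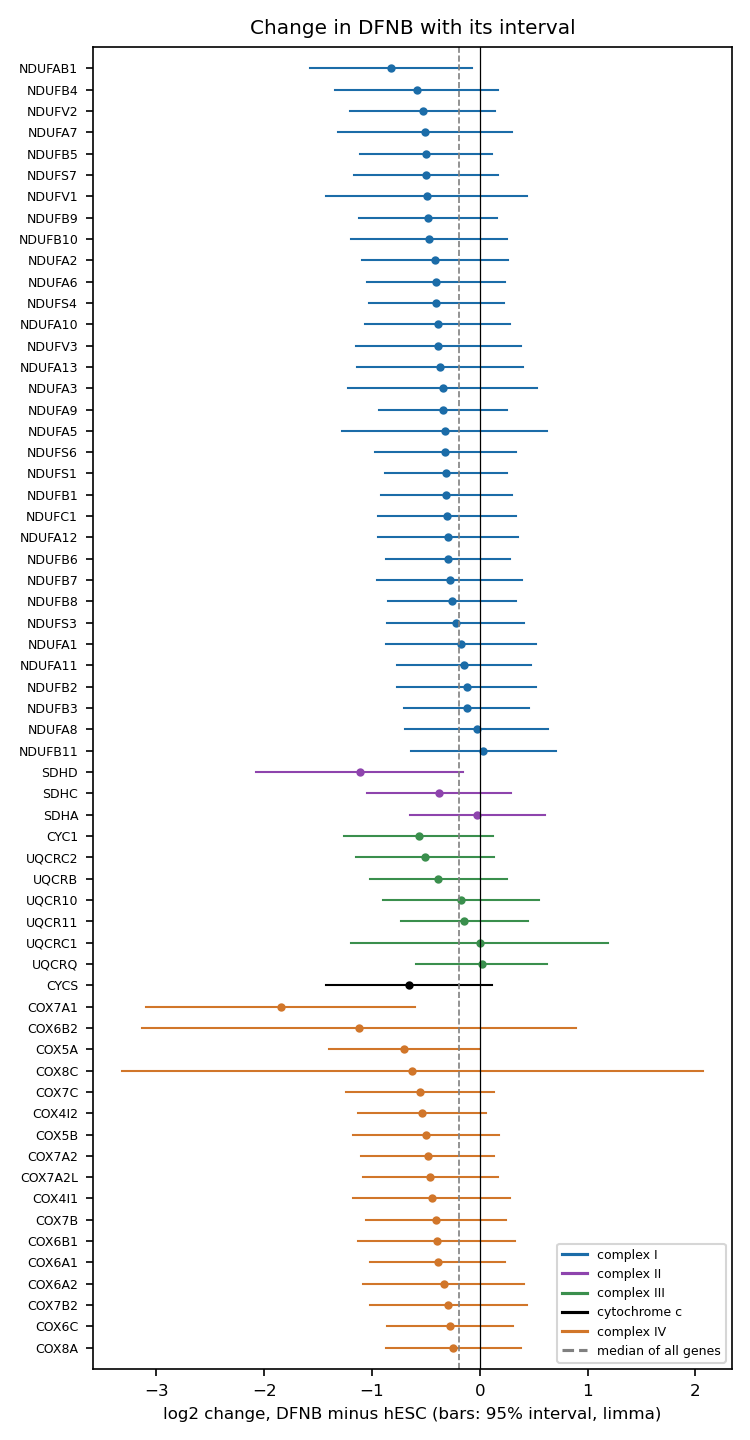
Log2 change of each member in DFNB against hESC (points) with its 95% interval from limma (bars), coloured by complex and ordered within each complex. The dashed line is the median of all genes, -0.19. Intervals of 4 members, NDUFAB1, SDHD, COX5A and COX7A1, lie wholly below 0 before adjustment.

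No difference between FGF3+10 and DFNB was detected in any member at day 14. The median difference between FGF3+10 and DFNB was 0.02 over the members and 0.00 over all genes, with 37 members higher and 24 lower. By limma 0 members passed the adjusted threshold (all genes 0.0%) and 0 had an unadjusted p below 0.05 (all genes 1.52%). For 54 of 61 the 95% interval lay within 1 unit of 0 on either side, so larger differences are outside the interval for those, while smaller ones are within the error. The lines differed in sign: the median member difference came to -0.13 for Shef3, 0.15 for H14 and 0.01 for Shef1, and all genes had -0.10, 0.08 and 0.03.

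COX4I2, the isoform of COX4 known from lung and for its link to low oxygen, was the 1 member whose FGF3+10 arrays all lay above its DFNB arrays (all genes 1.46%). It was at 5.47, 5.48 and 5.19 in hESC, 4.62, 4.88 and 5.03 in DFNB and 5.35, 5.46 and 5.41 in FGF3+10, for Shef3, H14 and Shef1. DFNB was thus below both other groups on every array, while FGF3+10 overlapped hESC. The difference of FGF3+10 from DFNB was 0.56 ± 0.26 (SE, n = 3), with an adjusted p of 1 by limma. It was -0.54 for DFNB against hESC (adjusted p = 0.36) and 0.03 for FGF3+10 against hESC.

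The other members named for this comparison differed less, apart from COX7A1 at 0.80 on its low values. In complex I, NDUFA5 (0.08) and NDUFS6 (0.08) were highest and NDUFB3 (-0.19) and NDUFA1 (-0.18) lowest. In complex III, UQCRC2 (0.10) and CYC1 (0.07) were highest and UQCRQ (-0.19) and UQCR11 (-0.13) lowest, and in complex IV COX6C (-0.11) and COX6A1 (-0.07) were lowest.

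**Figure D4:**
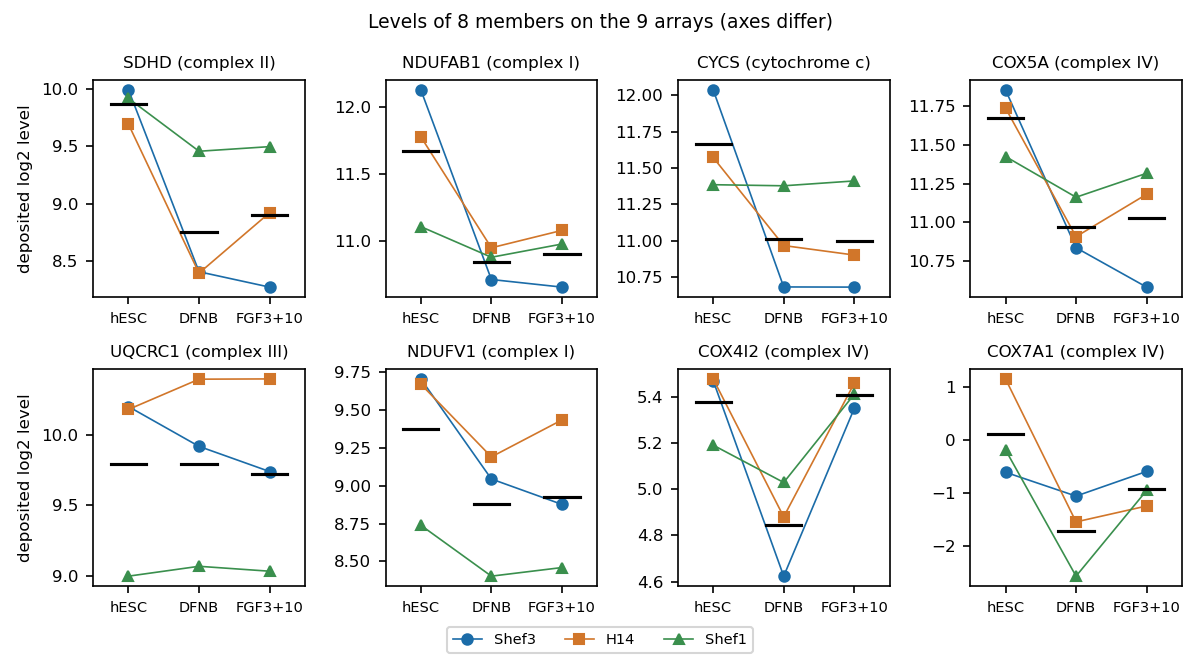
Deposited log2 levels of 8 members on the 9 arrays, with lines joining the arrays of 1 cell line and bars for the mean of each group. SDHD, NDUFAB1, CYCS and COX5A show Shef3 and H14 below hESC at day 14 and Shef1 closer to it, UQCRC1 and NDUFV1 show Shef1 below the other lines, and COX4I2 shows DFNB below both other groups.

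The median change of the members from day 0 to the mean of both day 14 arrays came to -0.51 for Shef3, -0.45 for H14 and -0.11 for Shef1. In the same order of lines 56, 60 and 44 of 61 members were lower, against 63%, 62.6% and 46.7% of all genes. All genes had medians of -0.36, -0.27 and 0.05. By medium, genes at a level of 8 or more had medians of -0.49, -0.28 and 0.06 in DFNB. In FGF3+10 those genes had -0.59, -0.25 and 0.11. The members had -0.49, -0.55 and -0.10 in DFNB and -0.59, -0.39 and -0.08 in FGF3+10. In Shef3 the member medians thus stood near those of genes at that level. In Shef1 hESC, 46 members were at their lowest of the 3 hESC arrays. The median of all genes was also lowest on that array, at 5.04 against 5.31 in Shef3 and 5.41 in H14. For genes at a level of 8 or more the medians were 8.94, 9.35 and 9.24 in that order of lines. The share of all genes at their lowest there is not given here. Without Shef1 60 of 61 members were lower in DFNB and 59 in FGF3+10 (all genes 63.1% and 65.5%, genes at 8 or more 73.8% and 78.5%). Without Shef3 it was 57 and 56 (all genes 57.1% and 56.2%, genes at 8 or more 59.2% and 59.5%). Without H14 it was 56 and 57 (all genes 57.7% and 60.5%, genes at 8 or more 67.9% and 72.6%). Over these fits and both media, the median change of the members ranged from -0.53 to -0.25. That of all genes ranged from -0.32 to -0.08 and that of genes at 8 or more from -0.43 to -0.07.

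Other values moved with the lines. The mean level of 7 pluripotency markers measured of 8 in the hESC group was highest in Shef3 (10.9), then H14 (10.4) and Shef1 (8.87). At day 14 it was 0.945 and 2.19 in Shef3 (DFNB and FGF3+10), 6.95 and 8.69 in H14 and 8.04 and 8.25 in Shef1, so Shef1 had both the smallest drop in these markers and the smallest change in members. The mean of 7 neural progenitor markers was 5.76 to 6.56 in hESC and 7.29 to 8.61 at day 14, and that of 6 of 7 otic and preplacodal markers 2.80 to 3.74 and 5.16 to 5.92. The poly-A spike-ins averaged 7.24 in Shef1 against 5.04 in Shef3 and 5.06 in H14, and hybridisation spike-ins ran from 8.73 to 9.68, highest in Shef3 hESC. The upper quartile of all probe sets was 6.46 in hESC, 6.29 in DFNB and 6.18 in FGF3+10 for Shef3. In the same order of groups it was 6.32, 6.34 and 6.33 for H14 and 6.02, 6.09 and 6.09 for Shef1. The GAPDH 3′ minus 5′ difference, a measure of RNA quality, was lower at day 14 in every line, from 0.53 to 0.21 and 0.31 in Shef3 (DFNB and FGF3+10), 0.23 to 0.18 and 0.14 in H14, and 0.23 to 0.18 and 0.20 in Shef1. That of ACTB went from 0.52 to 0.24 and 0.08 in Shef3, from 0.24 to 0.08 and 0.11 in H14, and from 0.66 to 0.54 and 0.69 in Shef1, so it was not lower in Shef1 FGF3+10. The part of these values in the member changes was not tested.

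UQCRC1 differed most between lines. It was at 10.20, 9.92 and 9.74 in Shef3, 10.18, 10.40 and 10.40 in H14 and 8.998, 9.07 and 9.03 in Shef1, in hESC, DFNB and FGF3+10. All Shef1 arrays lay below all others, by 1.29 on average against H14 and 0.92 against Shef3. The moderated F after removing group was 14.1 with an adjusted p of 0.098 by limma. NDUFV1 was also lowest in Shef1, at 8.74, 8.40 and 8.46, against 8.88 to 9.71 in the other lines (F = 7.15, adjusted p = 0.18). NDUFA5 went the other way and was 0.90 higher in Shef1 than in Shef3 (F = 5.22, adjusted p = 0.24), and NDUFA3, NDUFA1 and NDUFA7 were 0.80, 0.52 and 0.65 lower in Shef1 than in H14. In all, 0 members passed the adjusted threshold (all genes 0.486%) and 3 had an unadjusted p below 0.05 (all genes 20.3%).

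Whether the day 14 change itself differed between lines was tested with both media of a line as its 2 day 14 arrays, which leaves 3 residual degrees of freedom. By limma 0 members passed (all genes 0.0%), and 2, CYCS and NDUFAB1, had an unadjusted p below 0.05 (all genes 19.4%). The day 14 change of CYCS came to -1.36 for Shef3, -0.64 for H14 and 0.0092 for Shef1 (F = 10.98, adjusted p = 0.21). That of NDUFAB1 was -1.45, -0.77 and -0.18 (F = 8.68, adjusted p = 0.23), and that of SDHD -1.65, -1.03 and -0.44 (adjusted p = 0.31).

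Probe sets of 1 gene did not always move together. Of 32 members with several probe sets, 19 had another one above a level of 4, and for 8 of these its change in DFNB had the opposite sign. Of the 56 member probe sets not chosen, 35 were lower and 21 higher in DFNB, with a median change of -0.23. In FGF3+10, 33 were lower and 23 higher, with a median of -0.16. On chosen probe sets, 60.5% and 62.4% of all genes were lower in these comparisons. With each of 54613 probe sets fitted on its own by limma, a fit added after the data were seen, 0 of the 117 member probe sets passed in DFNB (all probe sets 0.106%) and 0 in FGF3+10 (0.0439%). The 4 genes below were singled out after their values were seen.

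The second probe set of COX6A1 gave 7.43, 8.82 and 8.13 in hESC, -3.81, 1.27 and -0.48 in DFNB and 0.37, -3.31 and -3.32 in FGF3+10, for Shef3, H14 and Shef1. It was high in hESC and near the bottom of the scale on all day 14 arrays. The differences of -9.13 (adjusted p = 0.063, limma) and -10.21 (adjusted p = 0.058) rest on low day 14 values and are not measured sizes. With values below 4 set to 4, the difference was -4.13 in both media (adjusted p = 0.0066 and 0.0072, limma). Every day 14 value was then 4, so the day 14 groups had no spread. These p-values therefore do not measure the spread between day 14 arrays. The chosen probe set of the same gene read 10.93 to 11.45 in hESC and 10.70 to 11.06 at day 14. The difference between the 2 probe sets in their change was not tested.

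The second probe set of UQCR10, a small subunit of complex III, went up. It was at 5.38, 4.95 and 5.08 in hESC, 7.35, 7.38 and 7.18 in DFNB and 7.40, 6.99 and 6.81 in FGF3+10, so the day 14 arrays lay above every hESC array. The changes were 2.17 (adjusted p = 0.061, limma) and 1.93 (adjusted p = 0.092), against -0.17 and -0.20 for the chosen probe set. For COX7B the second probe set was at 5.49, 3.37 and 4.56 in hESC and 5.58 to 5.94 at day 14, a difference of 1.36 in DFNB (adjusted p = 0.32). For CYCS a second probe set was at 6.82, 3.63 and 4.96 in hESC and 6.08 to 6.90 at day 14, a difference of 1.54 in DFNB (adjusted p = 0.41). Under a mean of all its probe sets the sign of CYCS turned, to 0.50 in DFNB and 0.44 in FGF3+10.

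**Figure D5:**
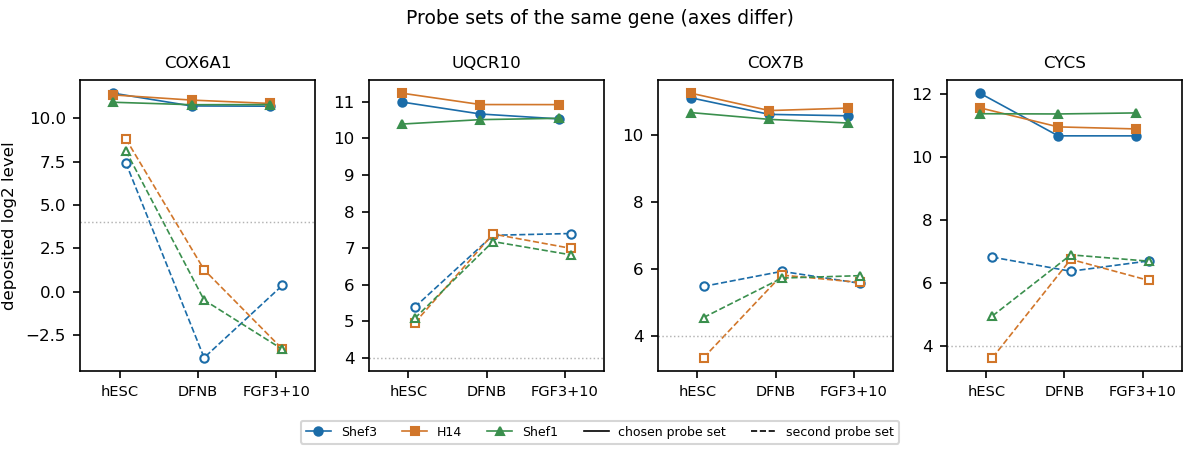
Deposited log2 levels of the chosen probe set (solid lines, filled symbols) and a second probe set (dashed lines, open symbols) of COX6A1, UQCR10, COX7B and CYCS on the 9 arrays, by group and cell line. The dotted line marks a level of 4. The second probe set of COX6A1 drops from above 7 to below 2, and that of UQCR10 goes from about 5 to about 7, while the chosen probe sets stay between 10 and 12.1.

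Other mitochondrial lists were read beside the members, and none of their genes passed the test in a comparison between groups. Before adjustment, a p below 0.05 in DFNB was found for 0 of the 18 ATP synthase genes, 7 of the 44 assembly factors, 6 of the 21 regulators, 3 of the 22 import and matrix genes and 4 of the 16 hypoxia genes, where 15.8% of all genes had one. Counts of lower means in DFNB below stand against 60.5% of all genes. All 18 genes of ATP synthase, which uses the proton gradient, were measured, and 16 had lower means in DFNB, with a median of -0.36. ATP5MC1, of the membrane ring, changed by -0.65 (adjusted p = 0.34, limma). The 44 assembly factors had a median of -0.39 with 33 lower. NDUFAF7, a methyltransferase needed for complex I assembly, was the farthest from 0, at 8.76 ± 0.19 (SD, n = 3) in hESC and 6.26 ± 0.73 in DFNB. Its change of -2.50 had an adjusted p of 0.069 by limma, and -2.16 in FGF3+10 had 0.12.

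The 21 regulators of mitochondrial biogenesis had a median of -0.63 in DFNB with 19 lower, and in Shef3 it was -1.44. PPARGC1B, a coactivator of this programme, changed by -2.38 (adjusted p = 0.28, limma) and SIRT1, a deacetylase, by -1.81 (adjusted p = 0.26). Of 25 genes of the outer membrane, import and matrix 22 were measured, with a median of -0.53 and 20 lower. SLC25A4, an ADP/ATP carrier, changed by -0.90 in both media. Between lines, OGDH of the citric acid cycle passed the test (adjusted p = 0.038, limma), at 3.68 to 4.31 in Shef1 and 6.05 to 6.75 in the other lines. Of 16 hypoxia response genes measured 8 were lower in DFNB, with a median of -0.23. In FGF3+10 10 were lower, with a median of -0.35 against -0.19 for all genes, and 6 had an unadjusted p below 0.05 (all genes 12.0%). The line medians there were -0.87 in Shef3, -0.11 in H14 and 0.41 in Shef1. ADM changed by -2.30 in DFNB (adjusted p = 0.19) and BNIP3L by 1.21 in FGF3+10 (adjusted p = 0.34).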

How the data were processed

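The 9 Affymetrix arrays held 54675 probe sets, of which 41091 named 1 gene. Deposited values were logarithms, read as log2; that base is an assumption. All arrays share a median of 3.20, set by the authors before deposit. The array software and background correction were not given in the sources used here. Arrays have no read depth, and their number limits the precision.

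Symbols were updated through Entrez identifiers. Comparisons between groups used limma (version 3.58.1, R version 4.3.3; lmFit and eBayes), with group means over all 9 arrays, adjusted by the Benjamini-Hochberg method over 19735 genes at 0.05. Lines were tested with group and line in 1 model. The fits were tested on simulated data. Members, lists and the naming rule were chosen with earlier results of these data known. The rule named 40 of the 61 members: those called, the largest changes by complex in each comparison, complex II, CYC1, CYCS, core subunits, isoform families, the largest F between lines, and the highest and lowest levels. Members outside it were chosen after their values were seen. Replicates 1, 2 and 3 are Shef3, H14 and Shef1, so the line pairs the arrays. Deviations of same-line arrays correlated at 0.105, 0.086 and 0.339 between DFNB and hESC, 0.182, 0.259 and 0.284 between FGF3+10 and hESC, and 0.401, 0.331 and 0.714 between FGF3+10 and DFNB. Alternatives were quantile normalization, the mean of all probe sets, dim genes (mean below 4) left out, a floor at 4, a variance trend, array weights, the line as block, only the compared groups, and each array or line left out.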

Additional observations from a re-analysis of the deposited data

How the results depend on the processing

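Under every alternative run for FGF3+10 against DFNB, 0 members passed the test. In DFNB against hESC 1 member passed under array weights, COX7A1 (adjusted p = 0.044, limma), where 1627 genes in all did. The lowest adjusted p of a member ranged from 0.044 to 0.76 over the alternatives. In FGF3+10 against hESC 1 passed with the mean of all probe sets, COX6A1 (adjusted p = 0.039, limma), through its second probe set. There 31 genes in all passed, and the range of the lowest adjusted p was 0.039 to 0.91. Between lines UQCRC1 passed with dim genes left out, with the floor and with the variance trend (1 member each). Under these settings 491, 468 and 604 genes in all passed. With array weights 3 members (UQCRC1, NDUFV1 and SDHD) passed, where 4491 genes in all did. The lowest adjusted p of a member between lines ranged from 0.013 to 0.52. For the day 14 change by line, 2 members (CYCS and NDUFAB1) passed with the floor, where 1743 genes in all did. The range there was 0.016 to 0.32. With the line as replicate block, 0 members passed in the 3 comparisons between groups, although calls over all genes went from 40 to 189 in DFNB and from 35 to 115 in FGF3+10. Over all alternatives, calls over all genes ranged from 0 to 1627 in DFNB and 0 to 292 in FGF3+10, both highest with array weights and 0 without Shef3 or without H14. They ranged from 4 to 4491 between lines (96 as reported) and from 0 to 1743 for the change by line (0 as reported). The median change of the members kept its sign under all alternatives in both comparisons with hESC. Per probe set, the second probe sets of COX6A1 and UQCR10 passed under the floor, the variance trend and array weights in both comparisons with hESC. That of UQCR10 passed also with dim probe sets left out, and with the block in DFNB (adjusted p = 0.046, limma). Under the floor that of COX6A1 had no spread at day 14. How many of all probe sets passed under these settings is not given here, so nothing particular to these genes is shown. Over all 61 members, the sign turned in DFNB against hESC for 10 under quantile normalization, 9 with the mean of probe sets, 1 with array weights and 9 with at least 1 array or line left out. In FGF3+10 against hESC it turned for 13, 6, 2 and 10, and in FGF3+10 against DFNB, where changes were near 0, for 8, 12, 15 and 53. Members with an unadjusted p below 0.05 in DFNB went from 4 to 13 with the floor (of the 56 members then tested) or the variance trend and to 18 with array weights, and in FGF3+10 from 2 to 12, 8 and 5. Adjusted calls over all genes rose under the same settings, from 40 to 184, 154 and 1627 in DFNB. In FGF3+10 they rose from 35 to 124, 78 and 292. The shares of all genes with an unadjusted p below 0.05 there are not given here, so an excess of members is not shown. The values that follow are those of the members that the naming rule chose, for FGF3+10 against DFNB only those it chose in that comparison. Under quantile normalization, the sign turned in DFNB against hESC for COX8A (0.0088), NDUFA1 (0.079), NDUFA8 (0.17), NDUFB3 (0.0705), SDHA (0.15) and UQCR11 (0.11). Under quantile normalization, the sign turned in FGF3+10 against hESC for COX8C (0.26), NDUFA8 (0.20), NDUFS3 (0.062), NDUFS6 (0.057), SDHA (0.20), UQCR11 (0.024), UQCRC1 (0.20) and UQCRQ (0.083). With the mean of all probe sets, the sign turned in DFNB against hESC for COX7B (0.48), CYCS (0.50), NDUFA5 (0.15) and NDUFS1 (0.38). With the mean of all probe sets, the sign turned in FGF3+10 against hESC for COX7B (0.38), CYCS (0.44) and NDUFS1 (0.21). With the mean of all probe sets, the sign turned in FGF3+10 against DFNB for NDUFA5 (-0.27) and UQCR11 (0.019). With array weights, the sign turned in DFNB against hESC for NDUFB11 (-0.024). With array weights, the sign turned in FGF3+10 against hESC for COX8C (0.16) and UQCRC1 (0.1). With single arrays or lines left out in turn, these log2 changes of the members named by the rule crossed 0. In DFNB against hESC they were COX6B2 (-2.53 to 0.055), COX8C (-1.45 to 0.19), NDUFA8 (-0.16 to 0.14), SDHA (-0.17 to 0.14), UQCRC1 (-0.40 to 0.36), UQCRQ (-0.098 to 0.12) and NDUFB11 (-0.20 to 0.15). In FGF3+10 against hESC they were NDUFS3 (-0.37 to 0.027), UQCRC1 (-0.47 to 0.28), NDUFA8 (-0.17 to 0.12), SDHA (-0.15 to 0.16), COX4I2 (-0.0696 to 0.10), COX8C (-1.44 to 1.46), NDUFB11 (-0.17 to 0.20), COX6A2 (-0.32 to 0.015) and NDUFA5 (-0.53 to 0.094). In FGF3+10 against DFNB they were CYC1 (-0.053 to 0.20), NDUFA5 (-0.20 to 0.42), UQCRC2 (-0.058 to 0.32), NDUFS6 (-0.015 to 0.22) and COX6A1 (-0.13 to 0.034). The cause of these changes was not tested.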
